A study of Mus musculus with 6 samples.

Results

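The transcriptome of regulatory T cells (Treg) with full-length FOXP3 is described here, as absolute levels over all deposited genes and as spread between replicates. The members are the 3 libraries that the labels give the genotype FOXP3 FL, of 6 libraries in the series, and no comparison with the exon 2 deletion group is made. The cells were Treg of C57BL/6 origin, derived in vitro from naive CD4 T cells for 3 days on coated anti-CD3 (1 µg/ml) with anti-CD28 (1 µg/ml). Human TGFβ at 5 ng/ml and human IL-2 at 20 ng/ml, both recombinant, were present, and per the labels over 90% of the cells were FOXP3+. All 6 cultures share this treatment, so every level below belongs to freshly activated, cytokine-treated cells and not to Treg taken from a mouse. The labels do not give the age or sex of the animals, nor whether each replicate is its own animal or culture, so the spread between them may be technical.

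FOXP3 is the forkhead transcription factor that defines the Treg lineage, and TGFβ together with T cell receptor and IL-2 signals switches it on in naive CD4 T cells. Treg hold the high-affinity IL-2 receptor and CTLA-4 on their surface and restrain other T cells through IL-2 uptake, inhibitory receptors and soluble mediators. Cells induced in culture are known to be less fixed in this fate than thymic Treg, and can keep genes of helper T cell programmes active.

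Levels are given as TPM, a length-scaled share of all transcripts, the count of a gene divided by its deposited length and scaled to the same sum in each library, and can be compared between genes. Spread is given as the coefficient of variation (CV) of CPM, counts scaled for depth, which are not divided by length and are scaled with TMM. Where 3 values follow each other they belong to FL replicates 1, 2 and 3, and 2 genes are said to differ in level only where their 3 values do not overlap. Total counts were 14293665, 16140432 and 13307155 over 14777 genes, from 22194947 to 26231220 raw reads. Of the 19258674 to 22636481 reads counted as high quality after mapping, 69.3% to 71.5% were assigned to genes. Across genes, log2 CPM of any pair of libraries correlated at a Pearson r of 0.989 to 0.992. One read corresponded to a median of 0.0512 TPM, over genes and libraries.

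The 3 defining genes of the label were present in every library. Foxp3 (ENSMUSG00000039521.12, chrX:7579676-7595243, + strand, mm10) stood at 304, 274 and 237 TPM, with the highest value in replicate 1 and the lowest in replicate 3. Its mean of 272 ± 33.2 TPM (SD, n = 3) placed it at rank 575 of 14777 genes, and in the libraries at ranks 489, 572 and 665. Il2ra (CD25, the IL-2 receptor α chain, chr2:11642807-11693193, + strand) stood at 2294, 2592 and 2590.2 TPM, which is rank 40 by TPM and rank 5 by CPM. Ctla4 (the inhibitory receptor that binds CD80 and CD86, chr1:60887000-60915832, + strand) stood at 538, 679 and 742 TPM, at rank 242, with its lowest value in replicate 1. The 3 genes did not overlap in any pair, so the order was Il2ra, Ctla4 and Foxp3. In CPM, Foxp3 had 469, 415 and 354 CPM and took rank 372, since its counted length of 3989 bases is long. With each gene divided by its principal transcript, where known, in place of all listed exons, Foxp3 would stand at 199 TPM and rank 809. This setting shifts the whole scale: mt-Rnr2 moved from 25805 to 18185 TPM and B2m from 25432 to 17918 TPM. Values by principal transcript, here and below, thus reflect the other genes as well as the gene's own length.

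Exon 2 of Foxp3, which these cells keep and the other genotype of the series lacks, is shown because it defines the genotype. It spans chrX:7587074-7587178 in mm10 on the + strand, 105 bases or 35 codons, so the reading frame is the same with and without it. The sequence below is from the GENCODE M21 transcript, 5′ to 3′, with exon 2 in capitals and 20 bases of the neighbouring exons on each side in lower case. 
Foxp3_exon_2: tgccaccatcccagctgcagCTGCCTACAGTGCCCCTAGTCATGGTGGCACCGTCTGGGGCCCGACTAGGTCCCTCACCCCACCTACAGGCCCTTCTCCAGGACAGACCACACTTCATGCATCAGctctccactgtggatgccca

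These bases are 2.63% of the 3989 bases over which Foxp3 reads were counted, so a count per gene cannot check the use of the exon.

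RNA was concentrated in few genes. The 100 highest genes held 34.2%, 32.3% and 32.3% of TPM in the 3 libraries (32.9% ± 1.11, SD, n = 3), and the 10 highest held 11.5% ± 1.13. A total of 314 ± 16.7 genes made up the first 50% of TPM, whereas in raw counts, which favour long genes, the same share took 741 ± 14.8 genes. In every library 13513 genes reached 1 TPM, 7963 genes (53.9%) reached 10 TPM, 1406 genes (9.51%) reached 100 TPM and 124 genes reached 1000 TPM. The median gene stood at 13.4 TPM. Protein-coding genes, 11388 of the rows, held 83.7% of TPM.

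Among the 20 highest genes were the mitochondrial ribosomal RNAs mt-Rnr2 (31871, 21682 and 23861 TPM) and mt-Rnr1 (10889, 7072 and 7191 TPM), both highest in replicate 1. B2m, the light chain of MHC class I, was the highest nuclear gene at 26628, 24506 and 25163 TPM, and the class I heavy chains H2-D1 (5980.3, 5959 and 6496 TPM) and H2-K1 (3859, 3626 and 3947 TPM) were in the same group. Actb, the cytoplasmic β-actin, stood at 12390.5, 12219 and 10445 TPM and Tmsb4x, which binds actin monomers, at 4389, 4437 and 3712 TPM, both lowest in replicate 3. The mitochondrial messages mt-Cytb and mt-Nd1, the translation genes Rpl36, Rpl32, Rplp1, Rplp0 and Eef1a1, and the T cell receptor constant gene Trac completed the abundant cell machinery. Surface antigens were represented by Cd52 (6409.6, 4584 and 5051 TPM, 8703 TPM by principal transcript, with 14.5% of its exon bases in an overlapping gene) and Ly6a, also called Sca-1 (4409, 5109.7 and 4344 TPM). Only 2 secreted mediators were among the 20, the chemokine Ccl4 (4075, 6593 and 6000.3 TPM) and the TNF family cytokine Lta (4561, 5043 and 5162 TPM). The predicted model Gm10736 (11037, 12060.2 and 12122 TPM) has a counted length of 78 bases, and its level rests on that length. The 250 genes under 200 bases together held 5.01% ± 0.29 of TPM.

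**Figure D1:**
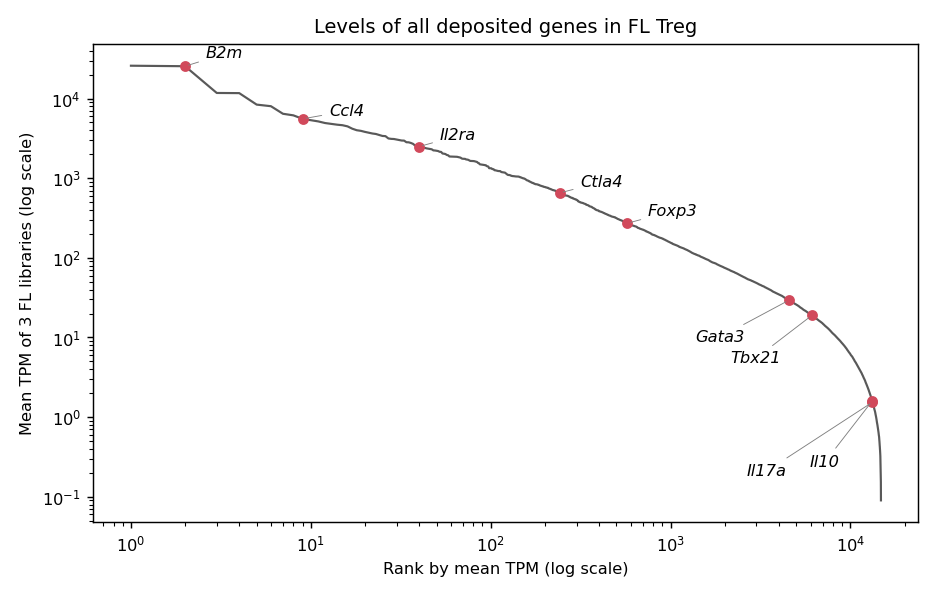
Mean TPM of 3 FL libraries (log scale) against rank among 14777 genes (log scale), with named genes as points on the line. Il2ra is at rank 40, Ctla4 at rank 242 and Foxp3 at rank 575, while Gata3, Tbx21, Il10 and Il17a lie at or below 29.4 TPM.

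Foxp3 was the second highest of the 29 lineage and fate regulators measured, after Myc. Of these regulators 22 of 29 reached 10 TPM in every library, against 53.9% of all genes, and 5 of 29 reached 100 TPM, against 9.51%. Their median was 39.5 TPM, against 13.4 TPM over all genes. Myc, which drives growth after T cell activation, stood at 404, 576 and 446 TPM and above every value of Foxp3. Id3, an inhibitor of E proteins, followed at 269, 157 and 187 TPM and overlapped Foxp3, as it did Ets1 (170.4, 195 and 176 TPM), a factor of T cell development. The interferon regulatory factors Irf8 (109, 154 and 136 TPM) and Irf4 (88.03, 158 and 106 TPM) and the E protein inhibitor Id2 (71.2, 87.3 and 91.9 TPM) came next, and Irf4 was highest in replicate 2. With principal transcript lengths Irf8 would stand at 232 TPM, and Foxp3 would take place 5 of the 29.

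The regulators of other helper T cell fates were lower than Foxp3 in every library. Gata3, the type 2 helper regulator, stood at 31.8, 29.5 and 27.005 TPM, close together in the 3 libraries. Tbx21 (T-bet), the type 1 helper regulator, stood at 15.3, 26.02 and 15.5 TPM, with replicate 2 apart from the others, which lay near each other. Bcl6 (follicular helper) was at 3.35, 2.03 and 1.9003 TPM and Rora at 1.77, 1.97 and 1.43 TPM (6.13 TPM by principal transcript). The TPM of Foxp3 was 9.22 ± 0.3903 times that of Gata3, 15.3 ± 4.69 times that of Tbx21 and 117 ± 23.2 times that of Bcl6 (ratio ± SD, n = 3), the last 61.3 times by principal transcript. Prdm1 (Blimp-1), a factor of effector differentiation, was low at 1.34, 4.14 and 2.42 TPM, highest in replicate 2. Genes of the naive and recirculating state were between these extremes: Klf2 at 81.4, 57.6 and 52.2 TPM, Tcf7 (TCF-1) at 66.2, 42.96 and 51.2 TPM and Foxo1 at 45.03, 37.8 and 35.5 TPM, each highest in replicate 1. Batf, which works with Irf4, had the reverse order, at 27.1, 55.6 and 37.6 TPM, highest in replicate 2 and lowest in replicate 1. In the order of 29 regulators most neighbours overlapped, and a gap between neighbours was seen below Myc, Ets1, Foxo1, Gata3, Nfil3 and Zbtb7b.

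**Figure D2:**
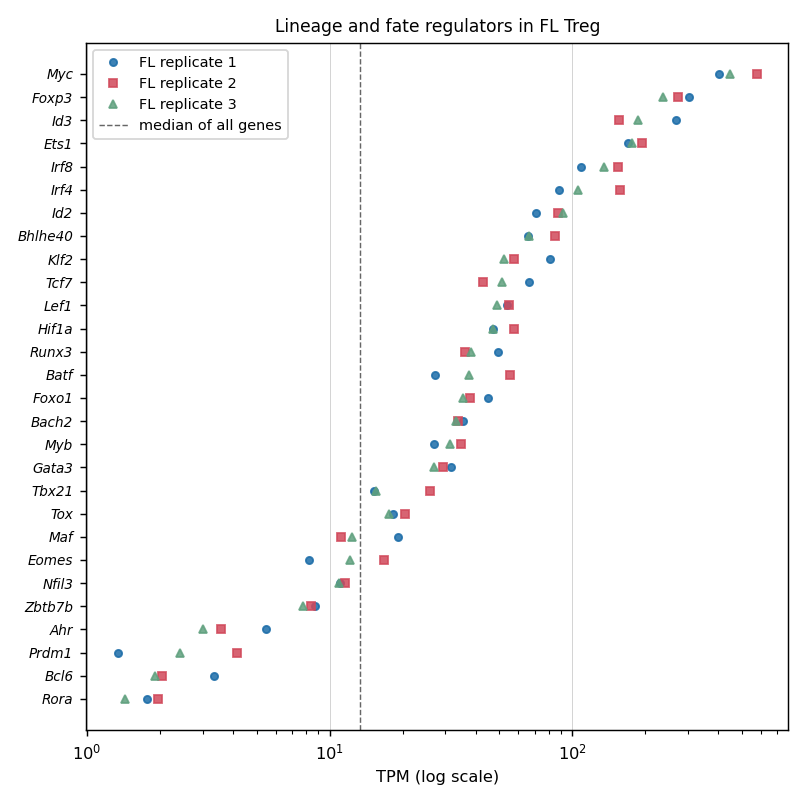
TPM (log scale) of 28 of the 29 lineage and fate regulators in each FL library, ordered by mean, with the median of all genes as a dashed line. Foxp3 lies at 304, 274 and 237 TPM, and Prdm1, Bcl6 and Rora lie to the left of the line in every library.

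Of the forkhead P family, Foxp1 stood at 121, 88.3 and 98.4 TPM and Foxp4 at 3.59, 3.96 and 4.04 TPM, below every value of Foxp3, and Foxp2 was not analysed here. FOXP proteins pair with each other and with other factors to act on DNA. Among 23 genes for Foxp3 and its known partner and control factors, 21 of 23 reached 10 TPM in every library and 2 of 23 reached 100 TPM, Foxp3 itself and Ikzf1, against 53.9% and 9.51% of all genes, and the list median was 41.4 TPM. Ikzf1 (Ikaros) was the highest partner at 116, 125 and 119 TPM, and its family member Ikzf4 (Eos) stood at 71.7, 60.97 and 68.03 TPM. Ikzf2 (Helios), which is known as high in thymic Treg, was at 15.8, 12.9 and 18.5 TPM. The NF-κB subunits Rela (85.7, 94.1 and 83.1 TPM) and Nfkb1 (77.6, 79.1 and 75.4 TPM, 159.7 TPM by principal transcript) were above Rel (36.6, 53.6 and 47.96 TPM), the subunit that acts on Foxp3 induction. Cbfb, the shared partner of RUNX factors, stood at 56.4, 59.6 and 56.7 TPM, and Runx3 (49.6, 36.3 and 38.4 TPM) was above Runx1 (22.1, 18.6 and 18.8 TPM) without overlap. Nfatc1 and Nfatc2, calcium-driven factors, were at 33.9, 34.1 and 30.6 TPM and at 23.7, 20.7 and 20.7 TPM.

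The receptor for the IL-2 given in culture was among the most abundant receptors. Il2ra and Il2rg (the common γ chain, 2351, 2233 and 2617 TPM) overlapped, and Il2rb (the β chain, 1146, 1454 and 1597 TPM) was below both, also at 654 TPM by principal transcript. The 3 chains together held 0.629% ± 0.0507 of TPM (SD, n = 3). Downstream, Jak1 stood at 191, 161 and 162 TPM and Jak3, the kinase that binds the γ chain, at 10.1, 12.8 and 11.2 TPM. Stat5b (56.7, 53.000 and 48.6 TPM) was above Stat5a (38.1, 32.8 and 35.5 TPM), an order that turns round by principal transcript, at 39.5 TPM for Stat5b and 45.9 TPM for Stat5a. Among feedback inhibitors Cish was highest at 151, 179.8 and 184 TPM, and Socs2 was almost the same in the 3 libraries at 85.8, 86.4 and 87.2 TPM (CV 1.04%, 261 TPM by principal transcript). Of the 7 STAT genes Stat4, which carries IL-12 signals, was lowest at 5.98, 8.21 and 5.04 TPM.

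For TGFβ, the type I receptor Tgfbr1 stood at 147, 108 and 151 TPM and the type II receptor Tgfbr2 at 51.6, 33.9 and 36.4 TPM (67.5 TPM by principal transcript), lower in every library. The signal carriers Smad4 (32.5, 29.4 and 28.8 TPM) and Smad3 (12.7, 16.4 and 13.1 TPM) and the inhibitor Smad7 (14.6, 9.21 and 10.3 TPM) were present at modest levels, with Skil, a repressor of SMAD activity, at 56.2, 51.7 and 51.3 TPM. Of 10 genes in the pathway 7 reached 10 TPM in every library and 1 reached 100 TPM, against 53.9% and 9.51% of all genes, and the median was 28.6 TPM. Tgfb1, the gene of the cytokine itself, was at 7.74, 9.56 and 9.23 TPM.

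Cytokine genes ranged from 1.102 to 4922 TPM. Of 46 listed, 33 were measured, 21 of 33 reached 10 TPM in every library and 9 of 33 reached 100 TPM, against 53.9% and 9.51% of all genes, and the median was 38.6 TPM. Lta (lymphotoxin α) was the highest at 4561, 5043 and 5162 TPM, with Ltb, its membrane partner, at 388, 495 and 465 TPM. Mif, a widely made cytokine of many cell types, came next at 1843, 2499 and 2091 TPM. Ifng, the defining cytokine of type 1 helper cells, stood at 345, 530.2 and 496 TPM, lower in replicate 1 than in the other two, and its mean rank was 348. Of the exon bases of Ifng 25.9% are shared with an overlapping annotated gene, and without strand information reads there cannot be assigned to either. Lif (174, 254 and 229 TPM) and Tnf (153, 203 and 191 TPM) were also lowest in replicate 1. The growth factor cytokines Csf2 (GM-CSF, 46.1, 93.02 and 109.9 TPM) and Il3 (51.6, 100.1 and 64.2 TPM) had CVs of 38.5% and 34.7%.

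Cytokines of other helper fates and of suppression stood lower. Il2, the T cell growth factor that FOXP3 is known to repress, stood at 17.5, 57.5 and 24.3 TPM, with replicate 2 above the others. Il17f was at 16.1, 3.57 and 9.15 TPM and Il17a at 0.779, 0.2799 and 3.57 TPM, and Il17a had the largest CV of the 33 cytokines at 114%, from 5, 2 and 21 reads. Il4 was at 2.97, 2.27 and 4.702 TPM and Il10, the inhibitory cytokine, at 2.09, 0.876 and 1.82 TPM. Il9, which TGFβ can induce, was higher at 41.5, 26.9 and 47.5 TPM. Ebi3, a subunit of IL-35 and IL-27, stood at 13.6, 23.3 and 22.1 TPM with 23.1% of its exon bases in an overlapping gene, and its partner Il12a was not analysed here.

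Of 22 listed chemokine genes 12 were measured, and the other 10 were not analysed here. Of the 12 measured, 5 reached 100 TPM in every library, against 9.51% of all genes, and the rest of the 12 were at or below 28.6 TPM. Ccl4 (4075, 6593 and 6000.3 TPM) and Ccl3 (658, 1006 and 993 TPM), neighbouring genes for chemokines of the CC family, had the same order of libraries, lowest in replicate 1, and their ratio was 6.26 ± 0.262. Xcl1, the ligand of XCR1 on cross-presenting dendritic cells, stood at 3043, 3377 and 2465 TPM, lowest in replicate 3. Ccl1, a ligand of CCR8, was even between libraries at 796, 825 and 775 TPM (CV 4.15%), and would stand at 2593 TPM by principal transcript. Ccl20, the ligand of CCR6, was at 274, 368 and 352 TPM. Ccl22, a ligand of CCR4 that dendritic cells also make, was at 10.98, 3.74 and 11.5 TPM, lowest in replicate 2.

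Promoter stretches of 4 cytokine genes and Foxp3 are shown because a larger share of cytokine genes than of all genes had a TATA sequence in a promoter. The letters TATAAA were searched on the strand of the gene, lying between 40 and 20 bases before the start site, in RefSeq promoters of GRCm38.p6, which is mm10. They were found for 7 of 34 cytokine and chemokine genes (20.6%), none of the 7 a chemokine gene, and for 3 of 22 lineage regulators (13.6%). Among all deposited genes with a listed promoter they were found for 118 of 9502 (1.24%). A gene was counted if any of its listed starts matched, so genes with more starts had more chances. Among genes at 100 TPM or more in every library the share was 2.43%. The letters GGGCGG or CCGCCC, on either strand anywhere in 300 bases, were found for 29.4% of cytokine and chemokine genes, against 67.4% of deposited genes, counted the same way. Each stretch runs 5′ to 3′ on the strand of the gene, from 50 bases before the start site to 10 bases after it, with TATAAA in capitals. Foxp3 is at chrX:7579626-7579685 (+), 1 of 2 listed starts, Ifng at chr10:118440996-118441055 (+), Tnf at chr17:35201998-35202057 (-), Il2 at chr3:37125945-37126004 (-) and Il17f at chr1:20784261-20784320 (-). 
Foxp3: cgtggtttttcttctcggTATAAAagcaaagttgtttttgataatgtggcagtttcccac
Ifng: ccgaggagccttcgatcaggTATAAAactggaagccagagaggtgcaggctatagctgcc
Tnf: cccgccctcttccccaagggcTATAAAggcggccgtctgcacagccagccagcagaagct
Il2: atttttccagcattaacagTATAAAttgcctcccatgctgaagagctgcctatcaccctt
Il17f: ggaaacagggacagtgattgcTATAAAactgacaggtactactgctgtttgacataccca

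The cytokine genes shown are those highest in mean TPM among the ones that carry the motif. For Foxp3 a start with the motif was taken, so its presence in all 5 genes was set by this choice. The motif began 32, 30, 29, 31 and 29 bases before the start. Mean levels of the 5 genes were 272 TPM for Foxp3, 457 for Ifng, 182 for Tnf, 33.1 for Il2 and 9.59 for Il17f. A match of letters is a description of the window and not evidence of a factor bound there.

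**Figure D3:**
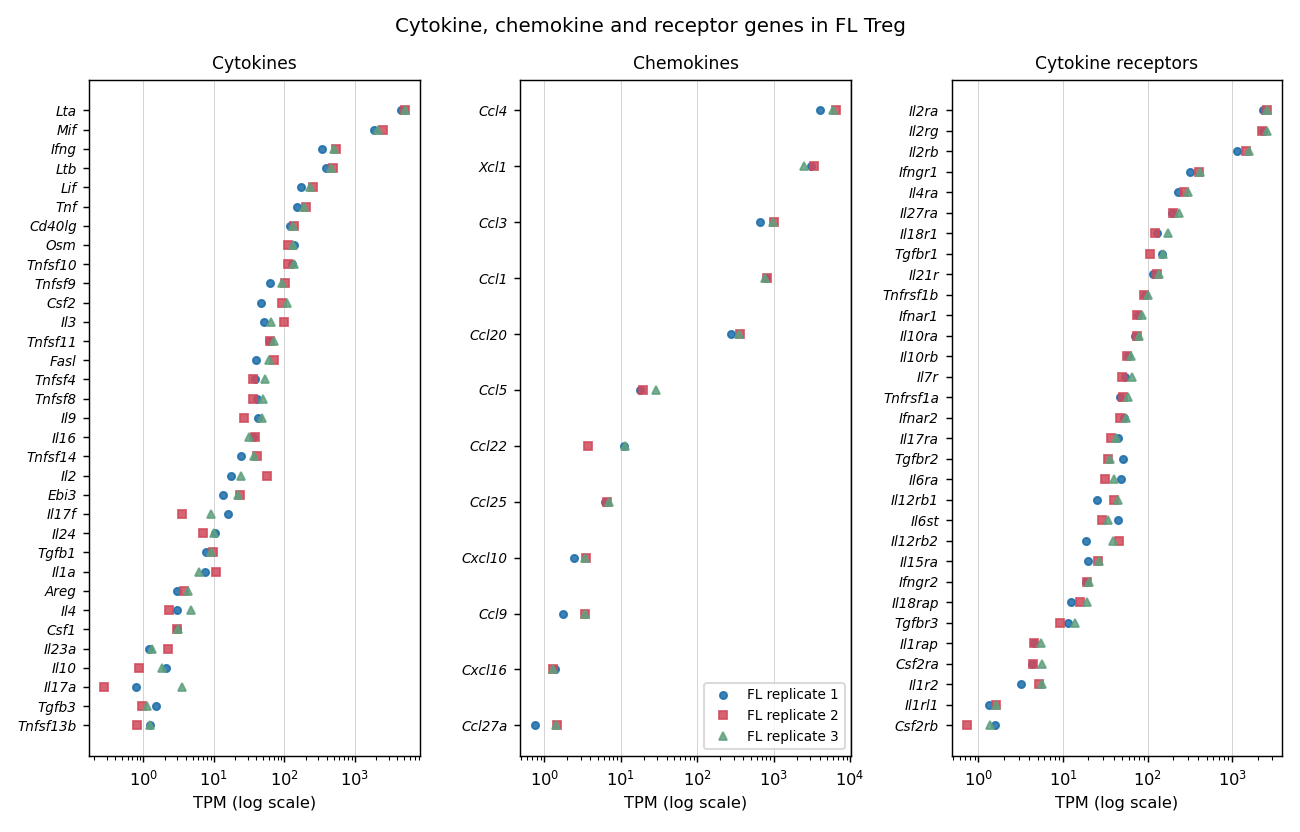
TPM (log scale) of measured cytokine genes (33), chemokine genes (12) and cytokine receptor genes (31) in each FL library, ordered by mean within each panel. Lta, Ccl4 and Il2ra head the panels, and the 3 libraries lie closest together among receptors and farthest apart for Il17a.

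Cytokine receptor genes were steadier than cytokine genes, with a median CV of 12.6% over 31 receptors and 20.9% over 31 cytokines, given as a description. Of 31 measured 25 reached 10 TPM in every library and 9 reached 100 TPM, against 53.9% and 9.51% of all genes. The median was 51.99 TPM. After the IL-2 receptor chains came Ifngr1 (322, 409 and 421 TPM), the ligand-binding chain for interferon γ, while its partner Ifngr2 was at 18.6, 19.2 and 20.2 TPM. Il4ra (229, 273 and 301 TPM), Il27ra (193, 201 and 235 TPM) and Il21r (115, 129 and 135 TPM), which bind cytokines of helper and myeloid cells, were all above 100 TPM. Il18r1, the binding chain for IL-18, stood at 131, 124 and 173 TPM. Il6ra (48.05, 31.5 and 39.7 TPM) and its signalling partner Il6st (gp130, 45.1, 28.7 and 34.2 TPM) were highest in replicate 1, whereas Il12rb1 (25.6, 39.8 and 45.2 TPM) and Il12rb2 (18.8, 46.1 and 38.8 TPM), which form the IL-12 receptor, were lowest there. By principal transcript Il6ra would stand at 72.5 TPM and Ifngr2 at 12.2 TPM, and Il12rb2 shares 40.04% of its exon bases with an overlapping gene. Il1rl1 (ST2, the IL-33 receptor of tissue Treg) was low at 1.32, 1.59 and 1.62 TPM.

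Ccr7, which guides T cells to lymph nodes, was the highest chemokine receptor at 1325, 1169.8 and 1375 TPM, and Ccr8, known from tissue and tumour Treg, followed at 1094, 671 and 855 TPM and highest in replicate 1. Cxcr3, a receptor of type 1 responses, was even at 166, 158 and 157 TPM (CV 4.696%). Of 21 listed 16 were measured, and of these 11 reached 10 TPM and 4 reached 100 TPM in every library, against 53.9% and 9.51% of all genes. The median was 36.4 TPM. Their CVs were wide: 8 of 16 had a CV over 25%, against 10.7% of all kept genes. The share of kept genes over 25% depends on level, at 30.3% at 1 to 5 CPM and 2.39% at 20 to 100 CPM. Cxcr6 (52.2, 23.4 and 58.9 TPM), Ccr6 (31.7, 18.1 and 33.7 TPM) and Cx3cr1 (27.98, 14.5 and 22.4 TPM) were each lowest in replicate 2. S1pr1, the receptor for leaving lymphoid organs, stood at 157, 99.4 and 127 TPM. Among integrins the leukocyte β2 chain Itgb2 led at 1323, 1315 and 1581 TPM, followed by the gut-homing partner chain Itgb7 at 799, 594 and 698 TPM.

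Surface genes known from Treg were abundant. Of 22 measured, 18 reached 10 TPM and 12 reached 100 TPM in every library, against 53.9% and 9.51% of all genes. The median was 169 TPM. The TNF receptor Tnfrsf4 (OX40) was the highest at 2356, 3187 and 3362 TPM, with its relatives Tnfrsf18 (GITR, 982, 1257 and 1372 TPM) and Tnfrsf9 (4-1BB, 558, 576 and 597 TPM). Tnfrsf18 shares 27.2% of its exon bases with an overlapping gene. Izumo1r (folate receptor 4) was at 935, 1048 and 1191 TPM, Icos, a costimulatory receptor, at 422, 473 and 549 TPM and the inhibitory receptor Pdcd1 (PD-1) at 375, 359.8 and 447 TPM. These genes were lowest in replicate 1, with Pdcd1 as the exception, lowest in replicate 2. Gpr83, an orphan receptor known from Treg, was at 347, 288 and 336 TPM, and Tigit at 117, 151 and 139 TPM. Other inhibitory receptors were low, with Lag3 at 9.77, 10.9 and 13.9 TPM and Havcr2 (TIM-3) at 5.498, 8.13 and 8.7002 TPM. Nrp1, a marker of thymic Treg, stood at 111, 82.2 and 98.1 TPM (186 TPM by principal transcript).

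Of 15 measured genes of suppressive function 10 reached 10 TPM and 5 reached 100 TPM in every library, against 53.9% and 9.51% of all genes, with a median of 51.4 TPM. Lgals1 (galectin-1) was steady at 2003, 2090.1 and 1992 TPM (CV 3.28%). Gzmb, the cytotoxic protease granzyme B, was uneven at 705, 1394 and 1672 TPM (CV 38.2%), with replicate 1 below the others, and Prf1 (perforin) was far lower at 48.01, 55.9 and 50.4 TPM. Lrrc32 (GARP), which presents latent TGFβ on Treg, was even at 231, 226 and 217 TPM, whereas Itgb8, the integrin chain that can free it, was at 0.2804, 0.237 and 0.5396 TPM. The enzymes that make adenosine, Nt5e (CD73) and Entpd1 (CD39), were at 215, 169.8 and 219.6 TPM (306 TPM by principal transcript) and at 52.8, 40.3 and 46.9 TPM. Penk, which encodes enkephalins and is known from Treg, stood at 68.8, 64.2 and 86.2 TPM, and Areg, a tissue repair factor, at 3.003, 3.78 and 4.26 TPM.

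T cell receptor genes were high. All 24 measured genes of the receptor and its signalling reached 10 TPM in every library, against 53.9% of all genes. Of them 19 reached 100 TPM, against 9.51%, and the median was 489 TPM. Their median CV was 8.95%, and 13 of 24 had a CV under 10%, against 49.7% of all kept genes. That share depends on level, at 71.1% of kept genes at 100 to 500 CPM and 62.2% above 500 CPM. Trac stood at 4498, 4679 and 4903 TPM (CV 2.54%), and the β constant genes Trbc2 and Trbc1 at 3735, 3397 and 3777 TPM and at 2208, 1972 and 2231 TPM. The ratio of Trbc2 to Trbc1 was 1.702 ± 0.0174, but 1.16 by principal transcript, so its size rests on the length used. These constant genes are near-identical copies, so the split of reads between them is uncertain. Of the CD3 chains Cd3d stood at 1458, 1360.3 and 1619 TPM, Cd3g at 759, 595 and 753 TPM and Cd3e at 531, 440.4 and 517 TPM, but by principal transcript Cd3g would be at 1581 and Cd3e at 975 TPM, against 1169.6 TPM for Cd3d. Cd4 was at 559.8, 577 and 680.0 TPM. The kinase Lck, which starts the signal, was at 868, 922 and 1063 TPM, its substrate kinase Zap70 at 76.3, 84.6 and 76.4 TPM and the adaptor Lat at 779.9, 742 and 812 TPM. Cd5, a negative regulator of the signal, was at 683, 824 and 785 TPM, and the costimulatory receptor Cd28 at 286, 320.4 and 386 TPM.

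Early response and stress genes had a median of 19.1 TPM over 17 measured, against 13.4 TPM over all genes. Of them 11 reached 10 TPM and 1 reached 100 TPM in every library, against 53.9% and 9.51% of all genes. Nr4a1 (Nur77) was the highest at 104, 185 and 134 TPM. Egr2 stood at 40.8, 51.9 and 46.5 TPM and Fos at 9.93, 15.7 and 12.6 TPM.

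Of the 6 metabolic lists, glycolysis held the largest share of TPM. Of 24 measured, 20 reached 10 TPM and 9 reached 100 TPM in every library, against 53.9% and 9.51% of all genes. Their median was 84.4 TPM, and together they held 0.714%, 1.02% and 0.769% of TPM. Ldha, which makes lactate, was the highest at 1538, 2072 and 1646 TPM, and exceeded Ldhb, its sister isoform, by 74.1 ± 22.97 times (112 times by principal transcript). Pkm, the pyruvate kinase of dividing cells, stood at 1024, 1448 and 1088 TPM, and Pgk1 at 486, 784 and 524 TPM. Gapdh was at 876, 1137 and 865 TPM but would be at 1966 TPM by principal transcript, and Eno1 at 1163, 1434 and 1086 TPM would be at 2294 TPM, so the order among these enzymes rests on the length used. The glucose transporter Slc2a1 (GLUT1) was at 182, 343 and 292 TPM and Slc2a3 (GLUT3) at 19.4, 61.1 and 38.9 TPM. Hk1 (31.9, 41.8 and 32.5 TPM) and Hk2 (21.8, 49.7 and 31.3 TPM), the hexokinases, overlapped, and Hk1 would stand at 55.3 TPM by principal transcript.

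Genes of the tricarboxylic acid (TCA) cycle held 0.327% ± 0.0174 of TPM and had a median of 88.6 TPM over 20 genes. All 20 were at 10 TPM or more in every library, against 53.9% of all genes. Mdh2, the mitochondrial malate dehydrogenase, stood at 449, 439 and 429.5 TPM (CV 3.97%). Fatty acid oxidation genes were lower, with a median of 34.5 TPM over 16 genes, led by Acadl at 263, 210.3 and 238 TPM, and Cpt1a, which controls entry of fatty acids into mitochondria, was at 35.5, 27.2 and 30.3 TPM. Sterol and fatty acid synthesis genes had a median of 72.3 TPM over 22 genes. The desaturase Scd2 was the highest of these at 506, 1031 and 959 TPM, and Scd1 was uneven at 36.4, 116 and 80.4 TPM (CV 51.1%). Of 10 amino acid transporters 6 reached 100 TPM in every library, against 9.51% of all genes. Slc3a2, the shared heavy chain, was at 211, 223 and 263 TPM and Slc7a5, its large neutral amino acid partner, at 166, 164 and 206 TPM. Slc7a11, the cystine transporter, was at 0.157, 0.506 and 0.457 TPM. In serine and one-carbon metabolism Phgdh, the first enzyme of serine synthesis, was the highest at 596, 640.5 and 608 TPM (CV 3.66%), and the list of 10 genes had a median CV of 5.68%.

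Genes of cell division were high. All 30 measured reached 10 TPM in every library and 18 reached 100 TPM, against 53.9% and 9.51% of all genes. The median was 149 TPM. Rrm2, the ribonucleotide reductase subunit of S phase, stood at 643, 674 and 617 TPM, Top2a at 567, 556 and 537 TPM and Mki67 at 394, 359 and 343 TPM. The D-type cyclin Ccnd2 was at 239, 326 and 280.0 TPM, and of the inhibitors Cdkn1a (p21) was at 57.5, 64.002 and 66.1 TPM and Cdkn1b (p27) at 18.7, 18.98 and 17.96 TPM. Among regulators of cell death Bcl2 (176, 163 and 173 TPM) and Bax (149, 149 and 152 TPM, CV 0.903%) were highest, and Bcl2l11 (BIM) stood at 12.3, 10.8 and 12.3 TPM. Of the chromatin enzymes Uhrf1 (288, 272 and 253 TPM) and Dnmt1 (209, 207 and 199 TPM), which copy DNA methylation at replication, were highest, above the new-methylation enzyme Dnmt3a (21.5, 26.5 and 25.2 TPM). Tet2 (18.7, 21.5 and 22.2 TPM) and Tet3 (21.01, 18.7 and 19.7 TPM, 39.2 TPM by principal transcript), which start demethylation, were above Tet1 (0.618, 0.566 and 0.515 TPM).

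The 81 ribosomal protein genes held 10.1% ± 0.393 of TPM and were the steadiest large list. Their median CV was 6.31%, with 71 of 81 under 10%, against 49.7% of all kept genes. At 100 to 500 CPM that share of kept genes was 71.1%, and above 500 CPM it was 62.2%. Of them 78 reached 100 TPM in every library, against 9.51% of all genes, and the median was 934 TPM. The exceptions were Rpl13a (58.2, 68.2 and 54.96 TPM), Rpl24 (18.4, 22.3 and 17.4 TPM) and Rpl36al (at most 14.4 TPM). Rpl13a and Rpl24 have near-identical pseudogene copies elsewhere in the genome, and the sources used here do not say how reads matching several places were counted, so these levels are uncertain. Rpl36, the highest member, stood at 5144, 5365 and 4967 TPM, and by principal transcript Rps18 would be above it, at 5328 TPM against 3833 TPM. Rplp0, often used for scaling, stood at 3648, 4003 and 4126 TPM. Of 26 housekeeping genes 24 reached 10 TPM in every library, against 53.9% of all genes. The list ranged from B2m down to Tbp, the TATA-binding protein, at 8.51, 9.54 and 8.69 TPM. Their CVs ranged from 4.65% for Rplp0 to 26.96% for Pgk1, with 8.995% for Hprt and 20.1% for Tfrc, the transferrin receptor. The median CV of the housekeeping list was 9.74%, against 10.04% over all kept genes.

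Mitochondrially encoded messages held 3.05%, 2.16% and 2.31% of TPM, and mitochondrial ribosomal and transfer RNA held 4.42%, 3.01% and 3.295%, with replicate 1 highest for both sums. The second sum was mostly the 2 ribosomal RNAs, with 3.42% of TPM on average, against 0.157% for transfer RNA. Of its 7 genes 3 had the highest CPM in replicate 1 and 4 in replicate 3. In the deposited mapping table mitochondrial reads were 2.64%, 1.82% and 1.91%, of a total that the row label does not name. mt-Cytb stood at 9928, 6891 and 7206 TPM and mt-Nd1 at 7988, 5593 and 5721 TPM, whereas mt-Atp6 (119.7, 79.9 and 86.2 TPM) and mt-Co3 (92.4, 79.03 and 78.7 TPM) were much lower. The genes mt-Atp6 and mt-Co3 have near-identical copies in the nuclear genome, so their levels are uncertain.

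Spread between the 3 libraries was small for most genes. Over the 13972 genes kept by the filter on low counts the median CV was 10.04%, with 3.70% at the 10th percentile and 25.7% at the 90th, and the common biological coefficient of variation was 11.1%. The 226 genes under 1 CPM had a median CV of 14.2%, against 27.4% from counting alone. The filter asks for about 10 counts or more in all 3 libraries, which by itself narrows the CV of genes this low. At 1 to 5 CPM the median CV was 18.6%, against 17.6% from counting alone, and at 20 to 100 CPM it was 7.58%, against 3.99%. Above 500 CPM it was 8.52%, against 0.930%. In all 27.2% of kept genes had a CV at or under that of counting.

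Among 4058 genes of at least 50 CPM, the median CV was 7.45%. Itgae (CD103, the integrin chain that binds E-cadherin) had the largest CV at 59.3%, with 90.7, 27.1 and 49.6 TPM, highest in replicate 1 and lowest in replicate 2. Emp1 (46.8, 17.7 and 26.3 TPM), Ldlrad4, a negative regulator of TGFβ signals (121, 45.6 and 69.02 TPM), and Aqp3, a water and glycerol channel (1092, 493 and 688 TPM), had the same order of libraries as Itgae. The reverse order, lowest in replicate 1 and highest in replicate 2, was seen for the glucose transporter Slc2a3, the desaturase Scd1, the mitophagy gene Bnip3 (53.1, 134 and 77.4 TPM), Anxa2 (38.9, 91.6 and 47.6 TPM) and Nrn1 (36.99, 107 and 84.6 TPM). Pld4 stood apart with its highest value in replicate 3, at 59.97, 67.1 and 155 TPM. Among the 10 smallest CVs of this class were those of the splicing factor Prpf8 (452, 455 and 452 CPM), the scaffold Iqgap1 (1223, 1228 and 1219 CPM), the RNA-binding Stau1 (68.97, 69.3 and 69.4 CPM) and the chromatin protein Hmgn1 (64.8, 64.4 and 64.5 CPM). Zzz3, Rnf111, Mtf2, Scfd1, Naa16 and Phb2 completed the 10, with CVs from 0.080% for Zzz3 to 0.454% for Phb2. With 3 libraries such small CVs are below counting error and mark only that 3 values fell close together.

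**Figure D4:**
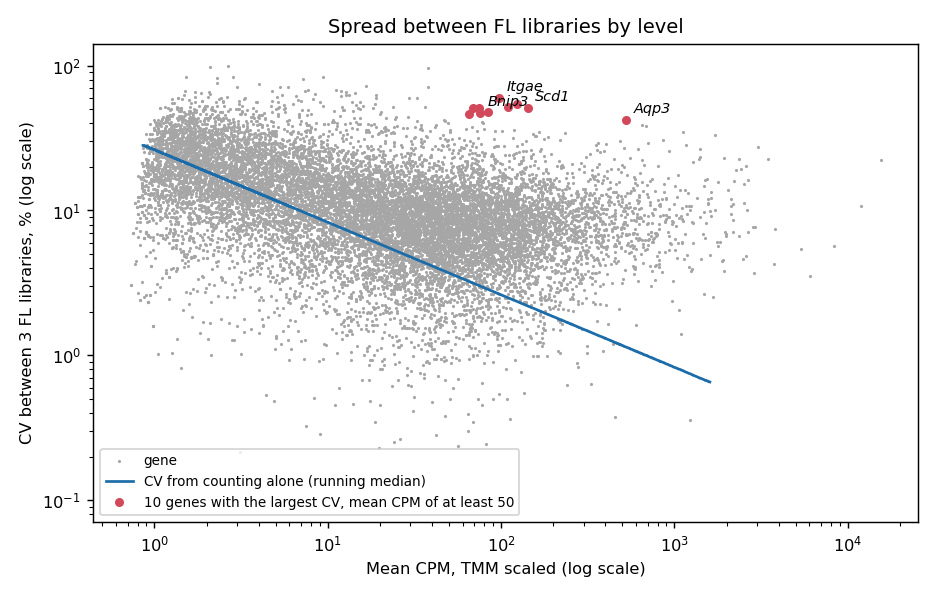
CV between 3 FL libraries (log scale, %) against mean CPM (log scale) for 13972 genes, with the CV expected from counting as a line and the 10 most uneven genes of at least 50 CPM as red points. The line meets the cloud at low CPM and lies below it at higher levels, where the median CV is 7.58% at 20 to 100 CPM.

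In several lists most members were highest in the same library, and that library differed between lists. Replicate 2 had the highest CPM for 20 of 23 glycolytic genes, against 31.8% of all kept genes. The same held for 17 of 22 sterol and fatty acid synthesis genes, 13 of 16 early response and stress genes and 8 of 12 chemokines. Median log2 differences from the mean of the 3 libraries were -0.24, 0.28 and -0.09 for glycolysis and -0.29, 0.22 and 0.05 for sterol and fatty acid synthesis. Of 20 genes known from the response to low oxygen, a list added after values were seen, replicate 2 was highest in 19 and replicate 1 lowest in 17, against 35.4% of all kept genes, and Pgk1, Slc2a1 and Slc2a3 are in the glycolysis list too. Replicate 1 was highest for 14 of 20 TCA cycle genes, 12 of 16 fatty acid oxidation genes and 10 of 12 mitochondrial messages, against 35.1% of all kept genes. Ribosomal protein genes were lowest in replicate 3 for 73 of 81, against 32.3%, and 49 were highest in replicate 1 and 31 in replicate 2. Replicate 3 was highest for 22 of 31 cytokine receptors and 8 of 10 amino acid transporters, against 33.0%. For the TCA cycle the median log2 differences were 0.07, -0.07 and -0.01, smaller than those of glycolysis. The replicates have no order, members of a list are not independent, and these counts describe 3 libraries.

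Medians of most marker lists of other cell types were lowest in replicate 2, apart from the natural killer and dendritic lists, whose members disagreed. The median log2 differences of the libraries from their mean were 0.38, -0.55 and 0.17 for B cell, 0.32, -0.51 and 0.18 for CD8 T cell and 0.54, -0.47 and -0.07 for γδ T cell markers, lowest in replicate 2. For 3 myeloid markers they were 0.10, -0.20 and 0.09 and for 2 stromal markers 0.09, -0.20 and 0.11, also lowest in replicate 2. They were -0.12, 0.06 and 0.06 for 2 natural killer and -0.44, 0.09 and 0.35 for 2 dendritic cell markers, lowest in replicate 1. In both of these lists 1 marker was lowest in replicate 1 and 1 in replicate 2. Of 8 measured B cell markers 5 were lowest in replicate 2, against 32.3% of all kept genes. Cd79a and Cd79b, the signalling chains of the B cell receptor, stood at 19.7, 10.2 and 18.02 TPM and at 22.6, 12.03 and 19.7 TPM. The B cell list summed to 0.108%, 0.131% and 0.137% of TPM, a sum led by Cd74 (522, 676 and 813 TPM), the MHC class II invariant chain, and by Ighm (441, 569 and 459.9 TPM), neither of which was lowest in replicate 2. Cd8a (24.4, 11.3 and 23.2 TPM) and Cd8b1 (37.2, 26.1 and 34.6 TPM), markers of CD8 T cells, were lowest in replicate 2, and the TPM of Cd4 was 34.4 ± 14.7 times that of Cd8a. Trdc, the δ chain constant gene, was at 3.35, 1.61 and 3.55 TPM, while Tcrg-C2 was at 464, 235 and 317 TPM, a γ gene that αβ T cells can also transcribe. Of 10 myeloid markers 4 were measured, with Lyz2 (lysozyme) at 3.05, 0.374 and 3.78 TPM, Cd68 at 12.3, 9.52 and 13.6 TPM and Mpeg1 at 15.5, 16.6 and 18.03 TPM, and Ctss at 994, 788 and 942 TPM. Of natural killer markers 3 were measured, Klrd1 at 108, 72.2 and 102 TPM, Eomes at 8.21, 16.7 and 12.1 TPM and Klrb1c at 1.29, 0.388 and 1.95 TPM. The dendritic markers were Batf3 at 2.28, 6.47 and 7.1004 TPM and Zbtb46 at 1.65, 1.39 and 1.89 TPM. Only Hba-a1 of the red cell list was measured, at 6.74, 2.22 and 2.69 TPM, and of the stromal list Pecam1 stood at 92.7, 86.1 and 111 TPM and Epcam at 22.1, 16.5 and 20.5 TPM. The other listed markers, such as Pax5, Csf1r, Itgax and S100a8, were not analysed here, and no measured marker was at 0 in a library. Fewer cells of a type and less RNA per cell cannot be told apart in bulk RNA, and the part of these markers in the differences between libraries was not tested.

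**Figure D5:**
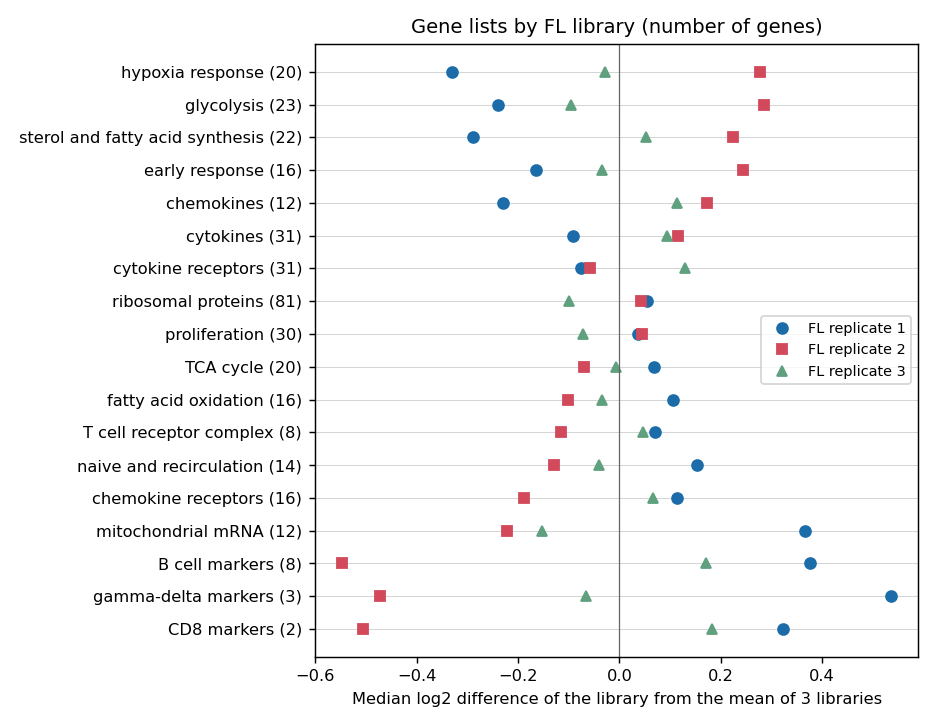
Median log2 difference of each FL library from the mean of the 3 libraries, in TMM-scaled CPM, for gene lists with the number of genes in brackets. Replicate 2 is to the right for low-oxygen, glycolysis and lipid synthesis genes and to the left for mitochondrial messages and for B cell, γδ and CD8 markers.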

How the data were processed

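Polyadenylated RNA of 3 FL libraries was used; the other libraries of the series entered nothing. Per the submitters' processing notes, reads were handled with bcl2fastq, STAR 2.5, Subread 1.5.1 (featureCounts) and edgeR 3.20.8 on mm10, settings not named. The authors deposited raw counts per gene for 14777 genes with the length of each, per the file headers; the sources used here do not say how these genes were chosen. The deposited mapping table gives reads and the percentage of reads per class, and sense reads were 48.4% to 49.5% of coding reads, so strand was not resolved.

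From the counts, TPM were computed over all 14777 genes with Python 3.11.15, and spread with edgeR 4.0.16 in R 4.3.3: TMM factors over the 3 libraries, genes kept by filterByExpr (13972 kept, 805 left out, minimum count 10), CV of the scaled CPM, and estimateDisp with an intercept only and robust settings. No contrast was tested: 3 libraries against 3 cannot give an exact permutation p under 0.1, and only 1 group is described. Simulated counts with known spread were used to check the code. The deposited length is the union of all listed exons, which lowers the level of genes with long rare isoforms. For 112 of 610 listed genes measured the principal transcript of GENCODE M21 moved the level by more than 1.5 times, the shift of the whole scale included. Means are given ± SD of 3 libraries. Total counts of 13307155 to 16140432 limit the precision of low genes, and counting error was taken as Poisson.

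Genes named are Foxp3, Il2ra and Ctla4, the 20 highest by TPM, members of gene lists, and the 10 largest and 10 smallest CVs at a mean of at least 50 CPM, without predicted models, receptor segments and pseudogenes. Gm10736 is among the 20 highest. The values of some list members are not reported here, though they count among the members. The members and the lists were chosen with earlier results of these data known, and the MHC class I, interferon-inducible and low-oxygen lists after the values were seen. Alternatives were each library left out, RPKM, DESeq2 1.42.0 size factors and dispersion, no composition factor, other filters, ranks by CPM, mitochondrial genes left out, and, chosen after seeing the data, principal transcript lengths and genes of at least 200 bases.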

Additional observations from a re-analysis of the deposited data

How the results depend on the processing

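No paired analysis was possible because only 1 group is described and its values come from no test. Leaving out each library in turn gave 256 to 289 TPM for Foxp3, 2442 to 2591 TPM for Il2ra and 608 to 711 TPM for Ctla4. Ranks were then 542 to 617 for Foxp3, 37 to 43 for Il2ra and 221 to 264 for Ctla4. The genes at 1, 10 and 100 TPM in every remaining library numbered 13572 to 13657, 8051 to 8160.0 and 1428 to 1455. The 100 highest genes held 32.3% to 33.2% of TPM and 21.1% to 21.5% of counts, and the median TPM of listed genes was 81.3 to 86.7. The median CV was 7.87% to 8.82% and the common biological coefficient of variation 9.001% to 12.9%. A CV of 2 values tends to be smaller than a CV of 3, so these medians cannot be set against the 10.04% of all 3 libraries. In 6 of 607 further listed genes 1 library moved the mean level by more than 1.5 times: Il2 stood at 20.9 TPM without replicate 2, Il17f at 6.36 TPM without replicate 1, Il17a at 0.529 TPM without replicate 3, Hba-a1 at 2.46 TPM and Itga2 at 0.257 TPM without replicate 1, and P4ha2 at 3.37 TPM without replicate 2.

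As RPKM, which do not sum to the same total as TPM, levels were 103 for Foxp3, 946 for Il2ra, 248 for Ctla4 and a median of 31.7 for listed genes. Ranked by CPM, Foxp3 was at 372 and Il2ra at 5. With principal transcript lengths Foxp3 stood at 199 TPM and rank 809, Il2ra at 2272 TPM and rank 52, Ctla4 at rank 295, and the median of listed genes at 88.1 TPM. Over genes of at least 200 bases that median was 87.9 TPM. Without mitochondrial genes the 100 highest genes held 30.0% of TPM and 19.8% of counts. Among genes of at least 5 CPM the median CV was 8.36%. The median dispersion of DESeq2 gave a coefficient of 13.0%, against the common value of 11.1% from edgeR, which is a different summary. The other alternatives moved levels, ranks and shares by less than the SD between libraries, and counts by less than 1.5 times. For the 2 measures of spread the yardstick was the SD of the values with 1 library left out, and the DESeq2 value lay within it. The depth limits low genes: at 1 to 5 CPM the median CV of 18.6% is close to the 17.6% of counting.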

Other observations

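The antigen presentation genes of MHC class I, which include B2m of the housekeeping list, were abundant. This list of 16 genes, put together after the values were seen, held 4.10% ± 0.11 of TPM (SD, n = 3). Of its members 14 of 16 reached 100 TPM in every library, against 9.51% of all genes. Besides B2m, H2-D1 and H2-K1, the non-classical H2-T23 (Qa-1) stood at 1642, 1834 and 1953 TPM, with the lowest value in replicate 1. The peptide transporter subunits Tap1 and Tap2 stood at 464, 499.9 and 542 TPM and at 272, 338 and 388 TPM, both with the same order of libraries. Nlrc5, the activator of class I genes, was even at 111, 115 and 122 TPM. The H2 heavy chains are similar in sequence, so the split of reads between them is uncertain.

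Of 20 interferon-inducible genes, also listed after the values were seen, 7 reached 100 TPM in every library, against 9.51% of all genes. The guanosine triphosphatases Igtp and Gbp2, which interferon γ induces, were the highest, Igtp at 2376, 2285 and 2017 TPM. The 3 lowest of the list were Mx1 at 0.951, 2.65 and 1.69 TPM, Oas2 at 1.02, 2.25 and 1.43 TPM and Rsad2 at 0.421, 0.832 and 0.780 TPM.

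Antigen receptor V segments were spread over many genes. Of 22 Trbv segments in the table Trbv19 took 13.9% ± 0.56 of Trbv counts and Trbv3 took 11.995% ± 0.32, and the 5 highest took 52.3%. Of 66 Trav segments none took more than 5.99% on average. These are counts per segment, from 17566 to 18953 Trbv reads and 8770.0 to 10599 Trav reads a library, and near-identical Trav copies cannot be told apart.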
